A study of Mus musculus with 8 samples.

Results

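Mtor encodes the protein kinase at the core of the mTOR complexes, which couple nutrients and growth signals to translation, ribosome production and autophagy, and in heart muscle cells it is known for its role in growth and in the response to load. Its primary transcript is long and is mostly intron, so a protein that binds RNA can meet it both before and after splicing. SRSF3 belongs to the SR proteins, which recognise short sequences in pre-mRNA, help to select exons, and accompany mature mRNA out of the nucleus. The study reports a change in Mtor splicing after loss of SRSF3 in the heart, and the values below describe where SRSF3 was crosslinked along the Mtor transcript.

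The Mtor interval is chromosome 4 from 147822001 to 147932500 on the plus strand of mm9, 110500 nt in length. Members were the single-nucleotide positions listed there. Replicate 1 listed 140 such positions of 769652 in all, replicate 2 listed 383 of 2093525, and the authors' merged track listed 811 of 3846902. They held 143, 395 and 852 cDNAs. The series held 8 mouse samples, of which 6 adult hearts (SRSF3 knockout and control) are not analysed here. The 2 samples used were SRSF3 iCLIP replicates 1 and 2. Both came from C57BL/6 neonatal cardiomyocytes, taken at P0 or P1, that had been transfected with modRNA for SRSF3 joined to green fluorescent protein (GFP) and irradiated with UV light at 254 nm 48 h later. In iCLIP the crosslinked protein is precipitated with its RNA, here through the GFP tag, and each cDNA ends beside the nucleotide that was crosslinked. The protein was thus made from an added mRNA, next to the cells' own SRSF3. Whether the replicates were separate cultures is not stated in the labels, so a difference between them may be technical. The p-values between them cover counting error only and do not measure a spread between cultures.

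Replicate 1 had 815414 cDNAs in all and replicate 2 had 2253688. Values are given per 1000000 cDNAs of the library (CPM). A region with 0 cDNAs could still hold up to 3.68 CPM in replicate 1 and 1.33 CPM in replicate 2. No precipitation from cells without the tagged protein was used here, and the tracks carry no measure of RNA abundance. A higher value can therefore come from more transcript or from more binding per transcript, which cannot be told apart. In a bulk culture, a difference in cell make-up and a difference in RNA per cell also cannot be told apart. The labelled cell type was not checked against marker genes, and the other genes of the mTOR pathway were not placed, because no annotation of mm9 was used here. For the same reason no Mtor position was assigned to an exon, an intron or a splice site, and no base was read at it.

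As background on the gene model, GENCODE M21 on GRCm38, another build from which no coordinate was carried over, gives Mtor (ENSMUSG00000028991) a plus-strand span of 109073 nt. The mm9 interval is 1427 nt longer than that. The longest annotated Mtor transcript has 58 exons with 8564 nt, 7.85% of the span, and all annotated exons of the gene together cover 9.27%. In that annotation Exosc10, a subunit of the RNA exosome, follows 745 nt downstream on the same strand as Mtor. Angptl7, a secreted angiopoietin-like protein, lies inside the Mtor span on the opposite strand. The annotation also lists 2 small nuclear RNA genes, Gm24002 and Gm23318, inside the span on the same strand as Mtor. Their cDNAs, if any, could not be separated and are counted here with those of Mtor.

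Mtor RNA was crosslinked to SRSF3-GFP at closely similar levels in the 2 libraries. The interval held 175.4 CPM in replicate 1 (exact 95% Poisson interval 148 to 207) and 175.3 CPM in replicate 2 (158 to 193). This is 1.59 ± 0.00066 CPM per kb (SD, n = 2). The log2 ratio of replicate 1 to replicate 2 was 0.00085, with a 95% interval from -0.29 to 0.28 (exact binomial p = 1.00, two-sided, given the depth of each library, adjusted p = 1.00 over 5 comparisons of whole-interval values). The interval of the ratio is far wider than the observed gap, so the closeness of the 2 values is no measure of precision. Of all windows of this length tested the same way, 0.109% differed between the replicates. Among all windows of this length and either strand with at least 1 cDNA, 97.2% lay below Mtor in replicate 1 and 97.9% in replicate 2. Most of these windows are nearly empty, with a median of 3.68 and 2.22 CPM, and they do not follow gene borders.

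The signal followed the strand and the 5′ border of the interval. Of the cDNAs between these coordinates, replicate 1 had 143 of 153 on the plus strand, or 93.5% (Wilson 95% interval 88.4% to 96.4%). Replicate 2 had 395 of 412, or 95.9% (93.5% to 97.4%). A difference between these shares was not detectable (two-sided Fisher's exact test, p = 0.267, adjusted p = 0.667). The minus strand, the only background the tracks give at these coordinates, held 10 and 17 cDNAs. They were scattered from 107 nt after the start of the interval to its last window, and no minus-strand position of either replicate held more than 2. Angptl7 is annotated on that strand inside Mtor and was not placed here, so some of these cDNAs may belong to it. Per length the plus strand stood at 1.59 CPM per kb and the minus strand at 0.0896 ± 0.030 (SD, n = 2).

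Upstream of Mtor the plus strand was almost silent. The 110.5 kb before the interval held 2 plus-strand cDNAs in replicate 1 and 3 in replicate 2. The first Mtor cDNA lay 726 nt after the start of the interval in replicate 1 and 994 nt after it in replicate 2, whereas the last plus-strand cDNA before the interval was 9161 and 6999 nt away. The 3′ border showed no such drop. Plus-strand cDNAs went on for another 42.5 kb with 43 and 120 cDNAs, and the 68 kb beyond held 2 and 8. The annotation above places Exosc10 next on this strand, so the end of the signal cannot serve as a check of where Mtor ends. The last cDNAs inside the interval lay 907 and 994 nt before its end.

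**Figure D1:**
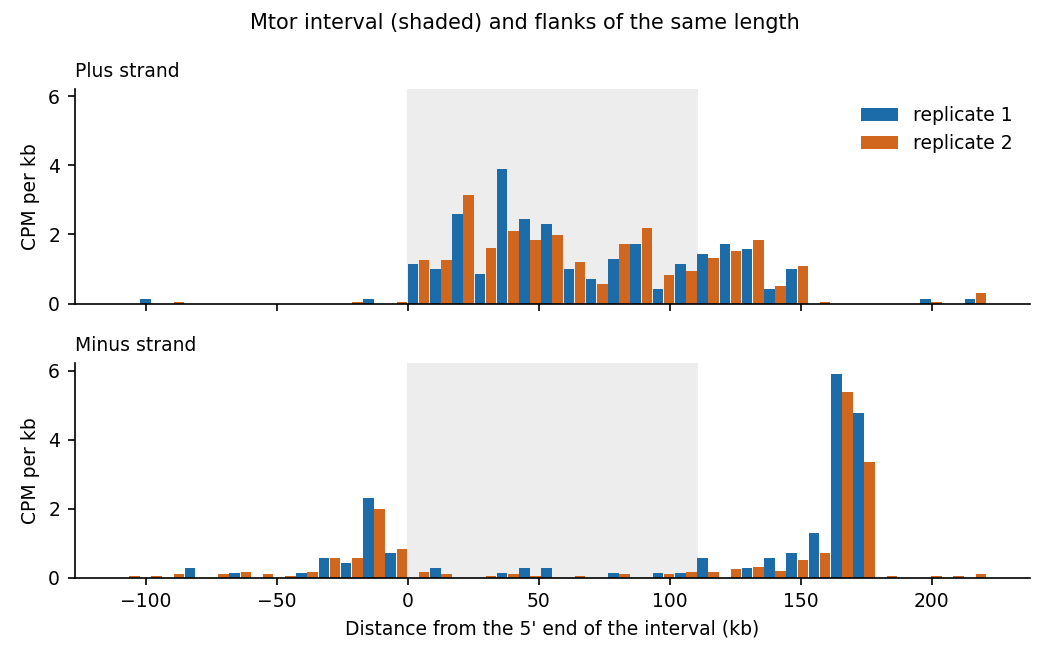
cDNA density (CPM per kb, bars) in 8.5 kb windows on the plus strand (top) and minus strand (bottom) of the Mtor interval, shaded, and of the flanks of the same length, with each replicate as 1 bar per window. The x axis is the distance from the 5′ end of the interval in kb. The plus strand rises at the 5′ border, where 2 and 3 cDNAs upstream give way to 143 and 395, and continues past the 3′ border.

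Crosslinking was spread along the whole transcript, with more in the first 55.25 kb of the interval. Each of 13 consecutive windows of 8.5 kb held cDNAs of both replicates. Of all windows of the interval's length with at least 100 cDNAs, 39.2% in replicate 1 and 40.3% in replicate 2 had all 13 parts filled, so full coverage was common at this depth. The strongest of the 13 held 18.9% of the Mtor cDNAs in replicate 1 and 15.2% in replicate 2. The median over those long windows was 20.5% and 21.8%. Mtor was thus not more concentrated than the middle of that set: 42.2% and 19.5% of the long windows had a smaller share in their strongest part.

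From 5′ to 3′ the density was uneven, with its 2 highest windows in the first 55.25 kb. Numbered from the 5′ end, window 1 had 8 cDNAs in replicate 1 and 24 in replicate 2, or 1.20 ± 0.070 CPM per kb (SD, n = 2), and window 2 had 7 and 24, or 1.13 ± 0.17. Window 3, 17 to 25.5 kb from the start, had 18 and 60 cDNAs, or 2.86 ± 0.38 CPM per kb. It was the strongest window of replicate 2. Window 4 dropped to 6 and 31 cDNAs, or 1.24 ± 0.53 CPM per kb. Window 5, 34 to 42.5 kb from the start, reached 27 and 40 cDNAs, or 2.99 ± 1.3 CPM per kb, and was the strongest of replicate 1. Windows 3 and 5 cannot be ranked, since their means differ by less than the spread between the replicates.

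The middle of Mtor stayed above its mean and the next part was low. Window 6 had 17 and 35 cDNAs, or 2.14 ± 0.44 CPM per kb, and window 7 had 16 and 38, or 2.15 ± 0.23. Window 8 had 7 and 23 cDNAs, or 1.11 ± 0.13 CPM per kb. Window 9, 68 to 76.5 kb from the start, fell to 5 and 11 cDNAs, or 0.648 ± 0.10 CPM per kb. In both replicates window 9 lay below every window of the first 68 kb. In replicate 2 its 95% Poisson interval, 0.287 to 1.03 CPM per kb, ended below those of window 3 (2.39 to 4.03) and window 5 (1.49 to 2.84). In replicate 1 its interval, 0.234 to 1.68, overlapped that of window 3 (1.54 to 4.10) but not that of window 5 (2.57 to 5.67). These windows were picked for their values, so this is a description.

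A second, lower rise lay in the 3′ part. Window 10 had 9 and 33 cDNAs, or 1.51 ± 0.30 CPM per kb, and window 11, 85 to 93.5 kb from the start, had 12 and 42, or 1.96 ± 0.33. Window 12 was again low, with 3 and 16 cDNAs or 0.634 ± 0.28 CPM per kb, and window 13 had 8 and 18, or 1.05 ± 0.15. Window 11 is the only window of the 3′ part above the Mtor mean in both replicates. In all, 5 of the 13 windows (windows 3, 5, 6, 7 and 11) lay above the mean of the interval in both replicates and held 62.9% and 54.4% of the cDNAs. Another 6 lay below it in both, and 2 differed in side.

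**Figure D2:**
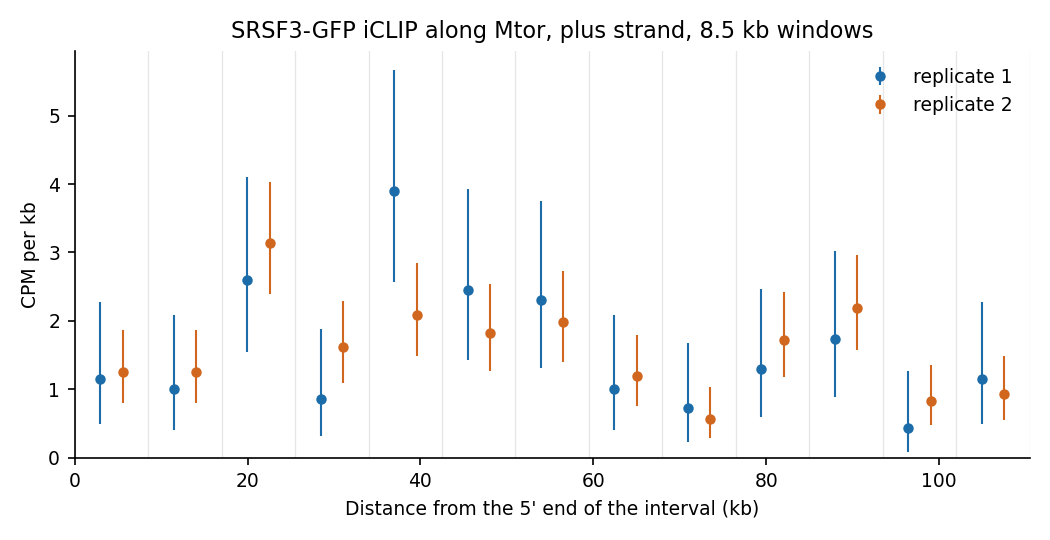
Density of plus-strand cDNAs (CPM per kb) in 13 windows of 8.5 kb along Mtor for each replicate, against the distance from the 5′ end of the interval in kb. Points are values and bars exact 95% Poisson intervals. Windows 3 and 5 are the highest, at means of 2.86 and 2.99 CPM per kb, and windows 9 and 12 the lowest, at 0.648 and 0.634.

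No tested Mtor window was called different between the replicates. Across the 13 windows Pearson's r between them was 0.728 and Spearman's rho 0.861, a description only, since windows of one transcript share its abundance. Of the 13 windows, 11 held the 20 cDNAs required for a test, and 0 differed between the replicates (exact binomial test, two-sided, 5% false discovery rate after Benjamini-Hochberg adjustment over all windows of the genome). Over all 39281 windows tested, 0.0305% were called. Before adjustment 1 Mtor window had a p under 0.05, against 4.84% of all windows. It was window 5, with a log2 ratio of replicate 1 to replicate 2 of 0.91 (exact binomial p = 0.0177, adjusted p = 0.894). Windows 9 and 12, with 16 and 19 cDNAs over both replicates, were not tested.

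The excess in the first 55.25 kb was present in both libraries. In replicate 1 the first 55.25 kb of the interval held 92 of 143 cDNAs, or 64.3% (Wilson 95% interval 56.2% to 71.7%). In replicate 2 it held 238 of 395, or 60.3% (55.4% to 65.0%). Both intervals lie above an even split. The replicates did not differ detectably in this share (two-sided Fisher's exact test, p = 0.423, adjusted p = 0.702). Over 5 consecutive parts of 22.1 kb, replicate 1 had 16.1%, 31.5%, 25.9%, 14.0% and 12.6% of its cDNAs, and replicate 2 had 18.5%, 28.4%, 22.8%, 14.9% and 15.4%. The second part was the highest and the first was lower in both replicates, so the density did not fall steadily from the 5′ end. The median cDNA lay 45.6 kb from the start in replicate 1 and 47.5 kb in replicate 2.

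**Figure D3:**
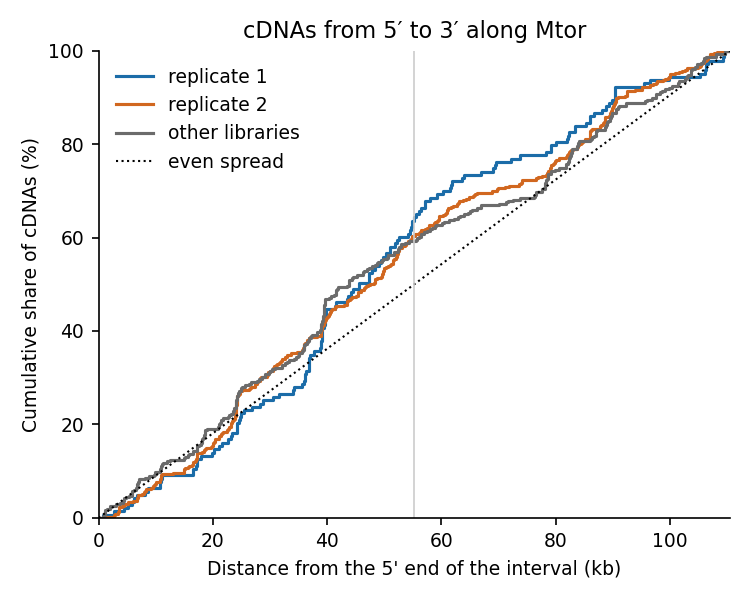
Cumulative share of Mtor cDNAs (%) against the distance from the 5′ end of the interval (kb) for replicate 1, replicate 2 and the other libraries of the merged track. The dotted line is an even spread and the grey line marks 55.25 kb, where the curves stand at 64.3%, 60.3% and 59.2%.

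At finer scale Mtor signal came as many separate cDNAs with a few denser stretches. Of 221 windows of 0.5 kb, 93 held a cDNA of replicate 1, 159 of replicate 2 and 177 of either, or 80.1%. The densest, from 147846001 to 147846500 and 24 kb from the start, held 3 cDNAs of replicate 1 and 16 of replicate 2, and 10 more in the other libraries of the merged track. Its density was 7.36 CPM per kb in replicate 1 (Poisson interval 1.52 to 21.5) and 14.2 in replicate 2 (8.12 to 23.1), or 4.64 and 8.95 times the mean of the interval. Most of it came from replicate 2, and the replicate intervals overlap. Of all nuclear windows of this size with a cDNA, 10563 held at least as many, or 0.966%.

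The next dense stretch ran over 1.5 kb, from 147860501 to 147862000, at 38.5 to 40 kb. It held 13 cDNAs of replicate 1 and 16 of replicate 2, or 10.6 and 4.73 CPM per kb, which is 6.70 and 2.98 times the Mtor mean. Here the larger share fell to replicate 1, with 9.09% of its Mtor cDNAs against 4.05% in replicate 2. The 1.5 kb ending with the densest window, from 147845001 to 147846500, showed the reverse order, with 3.50% and 6.84%. These stretches were picked for their counts and are given as descriptions.

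Clusters that needed both replicates were few. Joining positions at most 20 nt apart gave 410 runs, 342 of them a single position. With at least 5 cDNAs and both replicates present, 5 clusters were found, holding 29 of the 538 cDNAs, or 5.39%. The 5′-most ran from 147832816 to 147832833, 18 nt, with 2 cDNAs of replicate 1 and 4 of replicate 2. The next lay from 147839162 to 147839199, also with 2 and 4. The first of these is the narrowest of the 5.

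Another pair of clusters lay side by side at about 39 kb. One ran from 147860959 to 147861000 with 2 and 4 cDNAs, and the other from 147861070 to 147861099 with 3 and 2. Both belong to the dense 1.5 kb stretch described above. The last cluster, from 147907995 to 147908034 and 86 kb from the start, had 1 and 5 cDNAs and lies in window 11, the high window of the 3′ part. None of the 5 held a minus-strand cDNA, which says little, since they span only 18 to 42 nt and that strand is sparse. The other libraries had 0 or 1 cDNA in each.

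Joining over gaps of up to 50 nt gave 12 clusters with 84 cDNAs, 15.6% of the total. The leading one, from 147846029 to 147846297, held 3 and 15 cDNAs on 16 positions over 269 nt, more than any of the clusters joined at 20 nt. Of these 12 clusters, 11 lay in the first 55.25 kb, and the exception was the site at 86 kb. That part also held 64.3% and 60.3% of all Mtor cDNAs of the replicates. A fixed minimum of 5 cDNAs favours denser parts, so the count is no separate result. At 20 nt the stretch of the leading cluster also had a run of 6 cDNAs, from 147846079 to 147846118. All were of replicate 2, so it did not count among the 5.

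**Figure D4:**
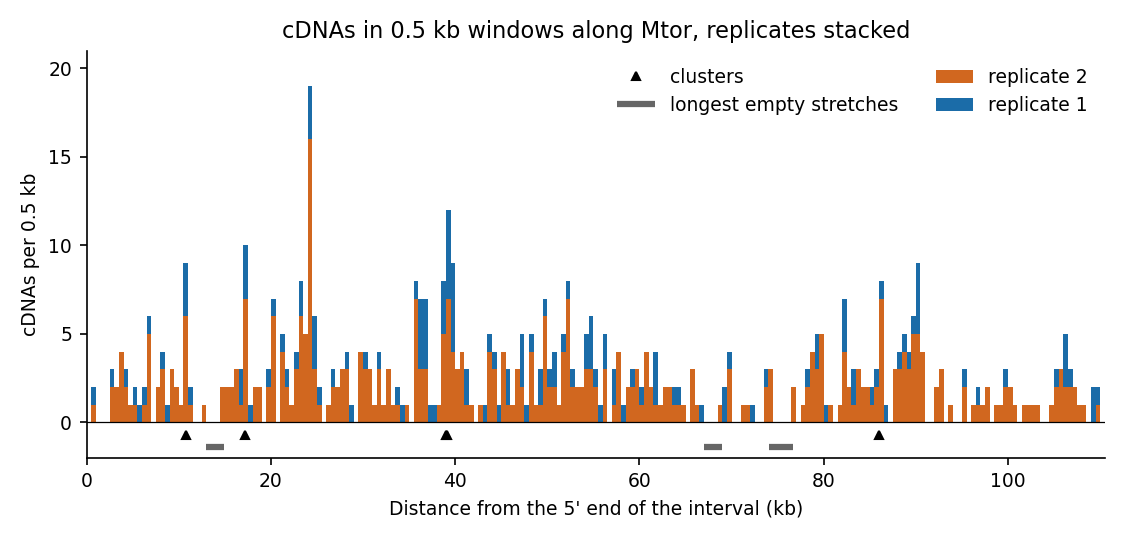
cDNAs per 0.5 kb window along Mtor with replicate 1 stacked on replicate 2, against the distance from the 5′ end in kb. Triangles mark the 5 clusters joined at 20 nt (a pair near 39 kb overlaps) and grey bars the 3 longest stretches without a cDNA of either replicate. The tallest bar, 19 cDNAs, is at 24 kb.

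Single nucleotides seldom recurred. Of the 140 positions of replicate 1, 5 were listed at the same nucleotide in replicate 2, or 3.57% (Wilson 95% interval 1.53% to 8.09%), and the same 5 are 1.31% of the 383 positions of replicate 2. Over all nuclear positions these shares were 4.78% and 1.75%. Mtor was near the background, and its interval includes it. The 5 positions were 147832833, 147839179, 147861442, 147872349 and 147872956. Each held 1 cDNA in both replicates, except that 147839179 held 2 in replicate 2.

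Of these recurrent positions, 147832833 and 147839179 lie inside the 2 clusters nearest the 5′ end, and 147861442 lies in the dense stretch near 39 kb. The latter was the only Mtor nucleotide listed in replicate 1, replicate 2 and the other libraries alike, with 1 cDNA in each. No Mtor position held more than 2 cDNAs in a replicate. A count of 2 was reached at 3 positions of replicate 1 and 12 of replicate 2, and single-cDNA positions made up 97.9% and 96.9% of the listed ones, against 96.9% and 95.9% over all positions of these libraries. Mtor thus had no single hot nucleotide in these replicates.

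Wider distances between the replicates were also counted. Each share includes the exact matches, so it can only rise with distance and is read only against the genome. Within 5 nt, 12.1% of the replicate 1 positions had a replicate 2 position (17 of 140), against 17.1% over all nuclear positions. Within 10 nt the share was 21.4% against 23.4%, and within 100 nt it was 72.1% against 59.7%. At short distances Mtor thus stood at or below the whole genome, and at 100 nt above it. The median distance to the nearest replicate 2 position was 49 nt in Mtor and 61 nt over all nuclear positions. These shares depend on how densely replicate 2 covers a transcript (in Mtor 1 position per 289 nt on average) and were not tested.

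Stretches without signal reached 2542 nt. The longest without a cDNA of either replicate ran from 147896100 to 147898641, 2542 nt, at the end of window 9 and the start of window 10. The next were 147888978 to 147890936, with 1959 nt, and 147834997 to 147836950, with 1954 nt. Another empty stretch of 1847 nt, from 147833149 to 147834995, is parted from the third by 1 listed nucleotide with 1 cDNA of replicate 2. The region from 147833149 to 147836950 thus held only that cDNA of the replicates and is longer than the longest empty stretch. The other libraries had 3, 1, 0 and 3 cDNAs in these stretches, where over the interval they listed 1 position per 365 nt on average. Whether depth or less binding left these stretches empty was not tested. Of these 4, the stretch from 147834997 was also empty in the merged track.

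The merged track adds 314 Mtor cDNAs that belong to neither replicate. Per its header it sums 5 libraries, so this remainder comes from 3 libraries that have no sample of their own in the data used here, called the other libraries. They held 276 CPM on the Mtor plus strand (Poisson interval 246 to 308), 1.57 times the 2 replicates together (exact 95% interval 1.36 to 1.81). Of 15370 windows of this length that held 20 or more cDNAs, 40.4% were called different (5% false discovery rate) and 24.0% were called higher in the other libraries. Mtor was among them (two-sided exact binomial test, adjusted p = 5.43e-09), and 23.0% of these windows had a larger ratio. A difference of this kind was thus common between these tracks. How the other libraries were prepared is not stated in the labels or headers.

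In the other libraries the Mtor profile was alike in part. With 0.5 cDNAs added to each side, the log2 ratio to the 2 replicates together was positive in all 13 windows. In window 7 it was only 0.020, with 2.07 CPM per kb in the other libraries against a replicate mean of 2.15. Of the 13 windows, 3 were called higher (exact binomial test, 5% false discovery rate), against 10.5% of all 51096 windows tested. By the exact binomial test these were window 1, with 27 cDNAs (log2 ratio 1.19, adjusted p = 0.0167), window 5, with 49 (0.98, adjusted p = 0.00550), and window 10, with 36 (1.21, adjusted p = 0.00373). Windows 5 and 3 were again the strongest, with 5.06 and 4.44 CPM per kb, and window 9 the weakest, with 0.723. Windows 6 and 7, above the mean of the interval in both replicates, had 2.27 and 2.07 CPM per kb here, below the mean of 2.50, and the 3′ rise was highest in window 10 (3.72) rather than window 11 (2.69). The third part of 22.1 kb held 15.3% of their cDNAs, against 25.9% and 22.8% in the replicates, a difference that was not tested. The first 55.25 kb held 59.2% of their cDNAs (186 of 314), which did not differ detectably from the replicates (two-sided Fisher's exact test, p = 0.561, adjusted p = 0.702).

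The plus-strand share was higher in the other libraries, at 99.1% (314 of 317, Wilson 95% interval 97.3% to 99.7%). Their minus strand held 3 cDNAs, against 27 in the replicates (two-sided Fisher's exact test, p = 0.00167, adjusted p = 0.00837). This test covers counting error only. The strand share was not compared in other intervals, so whether the difference is particular to Mtor was not tested. At single nucleotides, 10 of their 303 positions coincided with a replicate position, or 3.30%, against 4.10% over all nuclear positions. The highest Mtor count in the merged track, 4 cDNAs at 147846118, combined 1 cDNA of replicate 2 with 3 of the other libraries. It lies within the densest stretch of Mtor, at 24 kb.

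**Figure D5:**
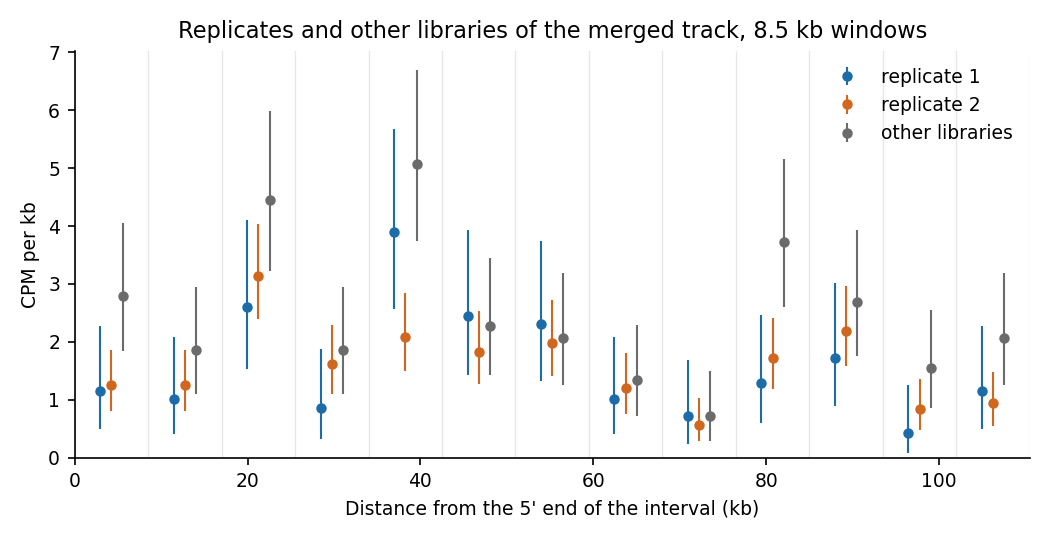
Density (CPM per kb) in the 13 Mtor windows for replicate 1, replicate 2 and the other libraries of the merged track, with exact 95% Poisson intervals, against the distance from the 5′ end in kb. The other libraries lie above replicate 2 in 13 windows and above replicate 1 in 11, and their highest windows are again windows 3 and 5.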

How the data were processed

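The authors' deposited tracks hold a signed score per nucleotide, not scaled to depth: its absolute value counts cDNAs and its sign gives the strand. Per the file headers these are cDNA hits on mm9 with Ensembl 59 annotation. Bowtie 0.10.1 was the mapper, per the submitters' processing notes. Collapsing of duplicates, reads with several matches and filters are not given in the sources used here. Positions are 1-based. cDNAs per window were divided by the library total. Means and SDs are over the 2 replicates. Poisson, Wilson and binomial values cover counting error only, and a count of 0 allows 3 cDNAs. Windows of 8.5 kb and of the interval's length were laid over the genome in phase with the interval, on each strand, and tested where they held at least 20 cDNAs. Their log2 ratios have 0.5 cDNAs added to each side. The test and the cluster search were checked on simulated data. What size of difference the test could find at the counts of the Mtor windows was not tested. Named were all 13 windows, clusters by cDNA number, positions in both replicates and the 3 longest gaps. Another gap, the 0.5 and 1.5 kb stretches, single counts and the tests against the other libraries over the whole interval were picked with their values in view. The interval and these rules were chosen with earlier results of these data known. SciPy 1.17.1 was used. Alternatives were other scalings, window sizes, thresholds, gaps, the merged track and leaving out each replicate.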

Additional observations from a re-analysis of the deposited data

Results flagged for a closer look

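The merged track held 314 plus-strand cDNAs in the Mtor interval beyond those of the replicates, in libraries outside the comparison of the replicates. They lay on 303 positions, of which 293 were listed in neither replicate. The remaining 10 are 3.30%, near the 4.10% of other-library positions found in a replicate over all nuclear positions.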

How the results depend on the processing

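The Mtor density of 1.59 CPM per kb became 1.66 when scaled without the mitochondrial genome and the 10 strongest windows, 1.65 positions per 1000000 positions and kb when each position was counted once, and 1.83 in the authors' merged track, which also includes the other libraries. The plus-strand share, a mean of 94.7%, was 96.6% in the merged track. The share of the first 55.25 kb, a mean of 62.3%, was 62.3% when each position was counted once and 60.6% in the merged track, which contains the replicates. It was 60.3% and 64.3% in the single replicates, and leaving out positions of more than 2 cDNAs removed none. The recurrence of 3.57% was 12.1% within 5 nt and 21.4% within 10 nt, and 1.93% for either replicate against the other libraries. The number of clusters, 5, depended on its rule: 1 at a gap of 10 nt, 12 at 50 nt, 15 with at least 3 cDNAs, 0 with at least 8, and 12 in the merged track. With replicate 2 alone it was 1 and with replicate 1 alone 0. A single replicate has fewer cDNAs to reach the minimum of 5, so these values do not show that the clusters need both. No tested Mtor window was called different between the replicates (0 in each of 5 other settings, exact binomial test), with 1 window at an unadjusted p under 0.05 in each. Against the other libraries 3 windows were called under both alternatives, and the interval ratio of 1.57 stayed called without replicate 1 or replicate 2 (adjusted p = 3.9e-08 and 4.56e-05, exact binomial test) and with the other scaling (1.57). These alternatives for the other libraries, apart from the minimum of 50 cDNAs, were chosen after seeing the data. No paired analysis was possible because both replicates belong to 1 group. Counts of 3 to 60 cDNAs per window and replicate limit all values.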
